A study of Mus musculus with 4 samples.

Results

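MIZ-1 ChIP-seq peaks that lay away from annotated promoters, in largely non-repetitive DNA, and that appeared in both genotypes were examined. They were defined by position, sequence and overlap in the ChIP-seq peak lists of B220+ splenocytes. A peak of the MIZ-1WT list was a member if it met 5 conditions. It did not cover its nearest GENCODE basic start site, nor lie less than 2000 bp before or 1000 bp after it. At most 50% of the bases within 100 bp of its summit were soft-masked as repeats, at least 40% of them were G or C, and the summit was outside coding exons. It also overlapped a peak of the MIZ-1DPOZ list. Of 34209 MIZ-1WT peaks, 25281 were away from promoters, 5514 of these had little masked sequence, 5371 also reached the GC limit and 4458 had a summit outside coding exons. The 2051 members are those of these 4458 that a MIZ-1DPOZ peak overlapped (46.0%, 95% Wilson interval 44.5 to 47.5). The other 2407 form the MIZ-1WT-only class used for comparison. Because overlap, GC content, masking and position chose the members, those values are given as description.

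The chromatin came from spleens of mice aged 40 to 70 days on the C57BL/6 background. MIZ-1WT mice carried intact MIZ-1. MIZ-1DPOZ mice carried a floxed POZ exon of Miz-1 and the Mb1-Cre allele, which drives Cre recombinase from the Cd79a (Mb1) locus in B lineage cells, so that these cells made MIZ-1 without its POZ domain. B220+ cells had been enriched with beads, and their chromatin was precipitated with the antibody H-190 against MIZ-1. Each genotype had 1 ChIP library and 1 input library, so no difference between genotypes can be set against variation between mice and none was tested. The lists hold no expression values, and the B220+ label could not be checked against marker genes.

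MIZ-1, also named ZBTB17, is a zinc finger transcription factor with an N-terminal POZ domain, through which proteins of this family form oligomers and recruit cofactors. It can activate genes at their core promoters, and it represses others together with MYC. The zinc fingers contact DNA and are kept in MIZ-1DPOZ. Sites of transcription factors away from promoters may be enhancers, unannotated promoters or CpG islands, but a peak can also arise over DNA that is present in many more copies in the cell than in the assembled genome. Ribosomal DNA arrays and telomeres are examples of such DNA. Telomeres are tandem copies of the hexamer TTAGGG, and short runs of the same hexamer also occur inside mouse chromosomes as interstitial telomeric sequences. Another POZ zinc finger protein, ZBTB48, is known to bind telomeric repeats.

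Several kinds of sequence recurred under the member summits, and examples are shown from the mm10 plus strand, as windows of 201 bases centred on the MIZ-1WT summit. The windows of the 2 strongest members in both lists are shown with each CpG dinucleotide in capitals. Whether these windows hold ribosomal RNA sequence was not tested.
In Filip1l and Cmss1, chr16:57391442-57391642: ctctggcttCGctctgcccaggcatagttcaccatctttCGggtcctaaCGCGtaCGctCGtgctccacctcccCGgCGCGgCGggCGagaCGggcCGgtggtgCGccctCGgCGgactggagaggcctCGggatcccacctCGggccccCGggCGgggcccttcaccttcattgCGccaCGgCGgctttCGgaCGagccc
Near Gm25352, chr3:5860586-5860786: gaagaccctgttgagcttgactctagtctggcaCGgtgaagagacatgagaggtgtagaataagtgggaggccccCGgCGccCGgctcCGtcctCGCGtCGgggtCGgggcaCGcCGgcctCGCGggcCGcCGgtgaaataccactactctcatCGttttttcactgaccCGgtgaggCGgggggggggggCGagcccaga
A further pair of windows among the 10 strongest resembled each other, with 85.6% identity over 181 aligned bases. In both, the capitals mark the NRF1 motif GCGCATGCG.
Near Hic2, chr16:17222252-17222452: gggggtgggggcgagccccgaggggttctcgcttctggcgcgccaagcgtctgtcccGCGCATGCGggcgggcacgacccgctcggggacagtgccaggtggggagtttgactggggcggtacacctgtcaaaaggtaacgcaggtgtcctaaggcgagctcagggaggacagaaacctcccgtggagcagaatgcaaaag
In Fgfr2, chr7:130834387-130834587: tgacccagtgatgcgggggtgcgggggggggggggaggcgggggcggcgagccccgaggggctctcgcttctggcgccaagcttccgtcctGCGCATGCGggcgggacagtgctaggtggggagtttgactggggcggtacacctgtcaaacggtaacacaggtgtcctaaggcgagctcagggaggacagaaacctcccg
The next windows hold runs of CG and CA (or TG) dinucleotides, with tracts of at least 20 bases in capitals.
Near Gm47975, chr12:65933066-65933266: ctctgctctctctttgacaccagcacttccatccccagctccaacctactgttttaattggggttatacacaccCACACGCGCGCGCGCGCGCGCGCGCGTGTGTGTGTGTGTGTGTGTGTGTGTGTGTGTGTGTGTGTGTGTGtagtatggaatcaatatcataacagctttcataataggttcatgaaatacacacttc
In Slc24a2, chr4:87082139-87082339: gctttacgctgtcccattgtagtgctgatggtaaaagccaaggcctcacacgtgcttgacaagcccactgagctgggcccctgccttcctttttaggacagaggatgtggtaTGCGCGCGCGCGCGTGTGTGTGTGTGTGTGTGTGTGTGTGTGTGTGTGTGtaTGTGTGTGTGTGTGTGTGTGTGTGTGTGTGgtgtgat
The last window, of 121 bases, is from a sequence that recurred in 12 members on chromosome 6, with a median of 4.73% masked bases, and is printed without capitals.
Near Rny3, chr6:47773025-47773145: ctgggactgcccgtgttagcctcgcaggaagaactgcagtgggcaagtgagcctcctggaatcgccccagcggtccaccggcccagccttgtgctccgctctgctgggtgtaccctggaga

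Where the members lay was described first. Of the 2051 summits, 996 (48.6%, 46.4 to 50.7) were in introns, 947 (46.2%) between genes, 74 in untranslated exons and 34 in exons of noncoding genes. In the MIZ-1WT-only class, 54.5% (52.5 to 56.5) were in introns. The median distance of members to the nearest start site was 13791 bp (quartiles 6410 and 29810), and 80 members were more than 100000 bp from any. The nearest start belonged to a protein-coding gene for 917 members (44.7%) and to a processed pseudogene for 347 (16.9%). Of all start sites in the annotation, 53.8% are of protein-coding genes and 12.9% of processed pseudogenes. Fuller annotations placed some members at start sites. In the same promoter window, 235 members (11.5%) had a start of the comprehensive GENCODE set, 281 (13.7%) had one of RefSeq, and 1639 (79.9%) had neither. Chromosome 4 held the most members, 178, or 1.14 per Mb. Among the autosomes the density was lowest on chromosome 3, at 0.519 per Mb, and chromosomes X and Y had 0.374 and 0.153 per Mb.

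Most members rested on few fragments. The pileup is the number of fragments over the summit, recovered from the peak scores. Its median was 9 fragments in the MIZ-1WT list (quartiles 8 and 11, range 5 to 283) and 14 in the MIZ-1DPOZ list (quartiles 11 and 20, range 7 to 339). At most 10 fragments in MIZ-1WT supported 1378 members (67.2%), and 65 members (3.17%) had at least 50. In the MIZ-1WT-only class 1 of 2407 peaks had at least 50. The median of the authors' fold enrichment, the summit signal over local background, was 5.29 for members in the MIZ-1WT list (interval 5.14 to 5.38) and 4.84 for the MIZ-1WT-only class. The paired summits lay a median of 43 bp apart, and 1563 pairs (76.2%, 74.3 to 78.0) were within 100 bp. At shared protein-coding promoters this share was 54.6% (53.2 to 55.9). The MIZ-1DPOZ peak was the wider of the pair for 1789 members (87.2%). For 118 members the MIZ-1DPOZ peak also overlapped another MIZ-1WT peak, and these pileups are not independent of each other.

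The pileups of the libraries were compared after division by depth, which was 1.34 times greater for MIZ-1DPOZ. At members, the log2 ratio of the MIZ-1DPOZ pileup over that of MIZ-1WT had a median of 0.21 (0.16 to 0.23), but scaling by the most frequent backgrounds in place of depth turned its sign, to -0.02. Every log2 ratio given here falls by the same 0.23 under that scaling. The median was 0.11 at shared protein-coding promoters and 1.01 at shared repeat peaks away from promoters. The MIZ-1DPOZ pileup was the higher one at 63.1% of members, or 48.3% with the background scaling. It was at least 2 times higher at 233 members (11.4%), where the background over all shared MIZ-1WT peaks was 28.8%. It was at most 0.5 times the MIZ-1WT pileup at 23 members (1.12%), against a background of 1.27%. With the background scaling these counts were 138 and 64, against 22% and 2.71% of all shared peaks. A member had to be called in both lists, which bounds the ratio at low pileups. At a mean pileup below 12 the median was -0.01 over 1028 members, of which 2 reached a ratio of 2. It was 0.41 over 701 members from 12 to 20, 0.90 over 193 from 20 to 40 and 0.76 over 129 with 40 or more. The mean contains the MIZ-1DPOZ pileup itself, so these medians are a description and not a relation between independent measures. Of the 322 members with a mean pileup of at least 20, 76 were single-copy without telomeric repeats, with a median of 0.41 (0.28 to 0.54), and 221 were multi-copy, with a median of 1.12 (0.98 to 1.17).

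**Figure D1:**
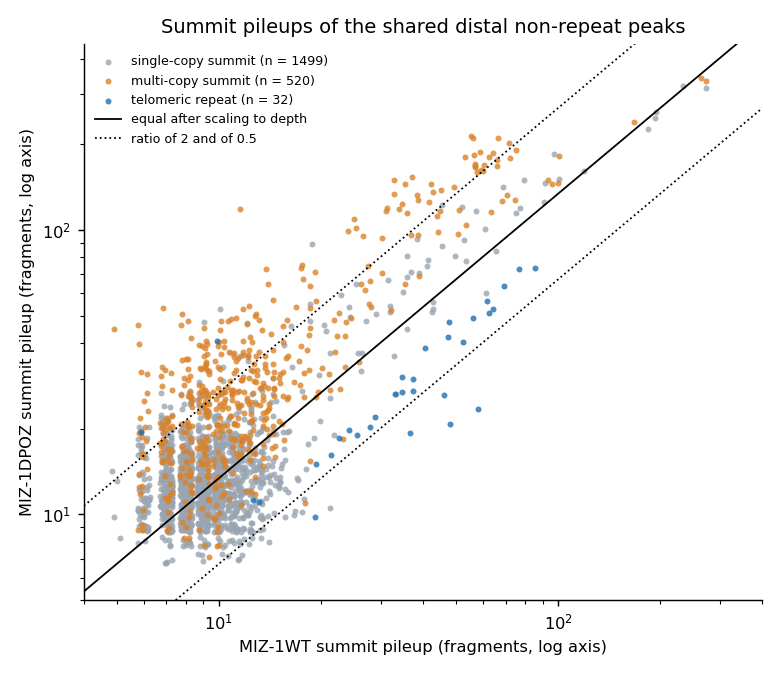
Summit pileups of the 2051 members in the MIZ-1WT list (x axis) and the MIZ-1DPOZ list (y axis), in fragments on log axes, with points spread by up to about 4% so that equal whole numbers can be told apart. The solid line marks equal pileups after scaling to depth and the dotted lines ratios of 2 and 0.5. Points of multi-copy summits lie mainly above the solid line, and 30 of 32 points with telomeric repeats lie below it.

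The ratio moved with the copy number of the sequence. Each summit was given the median number of exact copies, in the assembled chromosomes, of 5 sequences of 50 bases around it. Copies absent from the assembly, such as those of ribosomal DNA arrays, were not counted. A summit was single-copy where that median was 1. This held for 1529 members (74.5%, 72.6 to 76.4), for 95.7% of the MIZ-1WT-only class and for 18.6% of shared repeat peaks away from promoters. The median log2 ratio was 0.06 (0.04 to 0.11) at single-copy members and 0.77 (0.68 to 0.86) at the 522 multi-copy members. It was 0.52 at 128 members with up to 2 copies, 0.64 at 183 with up to 6 copies and 1.09 (0.98 to 1.16) at 211 with more. With the background scaling, the single-copy median changed sign to -0.16 and the multi-copy median was 0.55. Of the 233 members with a ratio of at least 2, 181 were multi-copy. Local background moved with these values. Its median was 0.860 fragments at single-copy members, the most frequent value of the whole list, and 1.30 at members of more than 6 copies. The corresponding MIZ-1DPOZ medians were 1.35 and 3.39. The part of copy number and background in the ratio was not tested.

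**Figure D2:**
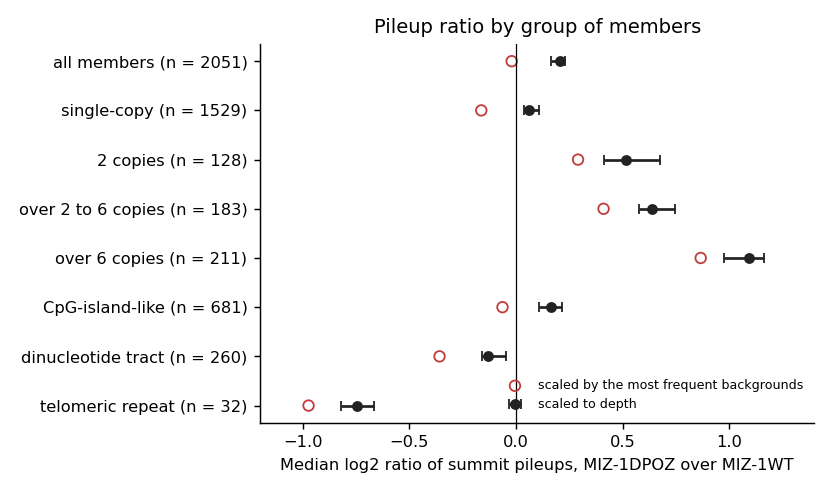
Median log2 ratio of summit pileups (MIZ-1DPOZ over MIZ-1WT, x axis) by group of members. Filled points are scaled to depth, with 95% order-statistic intervals, and open points are scaled by the most frequent backgrounds, which lowers each by 0.23. The medians rise from 0.06 at single-copy members to 1.09 above 6 copies and are -0.75 at telomeric members, and under the open-point scaling the medians of all, single-copy and CpG-island-like members lie below 0.

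The strongest members in both lists had very high pileups that differed little between the libraries. Choosing them by a high score in both lists in part fixes this. The 10 members with the largest smaller value of the paired −log10 q had MIZ-1WT pileups from 94 to 283 and MIZ-1DPOZ pileups from 125 to 339. The first lay on chr16:57391229-57391701 in introns of Filip1l, whose product interacts with filamin A, and of Cmss1. It had 283 fragments in MIZ-1WT and 339 in MIZ-1DPOZ, a depth-scaled ratio of 0.893 (exact 95% interval 0.761 to 1.05, counting error only). The second, near the miRNA gene Gm25352 on chr3:5860343-5860840, had 264 and 324 fragments and a ratio of 0.915 (0.776 to 1.08). Both libraries were very high there. No shared peak exceeded 296 fragments in MIZ-1WT or 346 in MIZ-1DPOZ, and the first member, with 283 and 339, lay close under both values. How far such a limit bounds the ratios and intervals of the strongest members was not tested. The 10 ratios ran from 0.893 to 1.12 with intervals that include 1. With the background scaling they ran from 0.764 to 0.960, and the intervals of 4 of them, including these first 2, lay below 1.

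The third of these members, near the pseudogene Gm11668 on chr11:109011645-109012106, had 234 and 311 fragments. The fourth lay 11062 bp before Hic2, which encodes a POZ zinc finger repressor related to MIZ-1, and had 180 and 230. An intron of Cdk8, the kinase of the Mediator module, held the fifth, with 188 and 269. A region 3415 bp before Tmem125, a transmembrane protein gene, had 273 and 339. Its summit sequence had 6 copies in the assembled chromosomes and the Filip1l summit 2, while the other 8 were single-copy by this count. An intron of Fgfr2, a receptor for fibroblast growth factors, held 118 and 158, with the start of Plekha1 nearest. The remaining 3 were near Gm28502 (187 and 248), in an intron of Aida (103 and 155) and near Gm48679 (94 and 125).

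These sites also had a high local background, the pileup expected without enrichment. Whether MACS2 estimated it from the input library or from the ChIP library itself was not established here. Over the 10 sites the background ran from 2.38 to 27.4 fragments in MIZ-1WT and from 3.34 to 41.5 in MIZ-1DPOZ. The most frequent values were 0.860 and 1.35. Of the 100 members with the largest MIZ-1WT pileup, 77 had a background at least 2 times the most frequent one, compared with 156 (7.61%) of all members. A background taken from ChIP reads would include those of the peak itself. High background at the largest pileups may therefore be fixed in part by the pileups. Without those 156 members, the median log2 ratio of the others was 0.16 (0.12 to 0.20). The high-background members had a median of 0.80, with median pileups of 35 in MIZ-1WT and 87 in MIZ-1DPOZ. The 18S ribosomal DNA locus of chromosome 17 matched 2 members. One near Gm2651 on chromosome 6, with 99 and 183 fragments, matched over 201 bases at 99.0% identity. The other, near Rtl10 on chromosome 16, had 7 and 11 fragments. A fragment of 420 bases of the 28S gene and the mitochondrial genome matched no member, but the full 28S sequence was not used here. Parts of some of the strongest windows, among them those near Hic2 and in Fgfr2, look like 28S ribosomal RNA by eye. Whether the strongest members match the full 28S sequence was not tested.

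The members with interstitial telomeric repeats were the clearest group in which MIZ-1WT exceeded MIZ-1DPOZ. Windows of 32 members (1.56%, 1.11 to 2.19) held at least 4 copies of the hexamer on one strand, a group formed after the sequences were seen. It was present in 14 MIZ-1WT-only peaks (0.582%) and in none of 4102 windows 2000 bp to either side of the members. Their median pileup was 36 fragments in MIZ-1WT (range 6 to 84) and 26.5 in MIZ-1DPOZ (range 10 to 71). The depth-scaled MIZ-1DPOZ pileup was the lower one at 30 of the 32, and the median log2 ratio was -0.75 (-0.82 to -0.66), or -0.97 with the background scaling. For 15 of the 30 the interval of the ratio lay below 1, and for 27 with the background scaling. The repeat was also held by 112 shared peaks that were not members, mostly because of masking, and among these 110 were lower in MIZ-1DPOZ, with a median of -0.75. All of these sites were read in the same pair of libraries.

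Each of the 5 smallest ratios among members with a mean pileup of at least 20 belonged to this group. Near Gm29334 on chr1:100738793-100739051, the pileup was 49 in MIZ-1WT and 20 in MIZ-1DPOZ, a ratio of 0.304 (0.171 to 0.522). Near Gm9387 on chr3:128936633-128936893 it was 56 and 24, a ratio of 0.320 (0.189 to 0.524). Near Gm25614 it was 37 and 19 (0.383, 0.208 to 0.683). In an intron of Bbox1, which encodes the last enzyme of carnitine synthesis, it was 47 and 26 (0.413, 0.245 to 0.680). Near Gm44402 it was 28 and 20 (0.533, 0.285 to 0.980). At 3 of the members with the most MIZ-1WT fragments in this group the values were 84 and 71 near 1700123O21Rik, 77 and 70 in Pde1c, a cyclic nucleotide phosphodiesterase gene, and 68 and 62 in D030025E07Rik. MIZ-1WT was thus higher after scaling at each of them, with ratios from 0.630 to 0.680. The repeat also lay in introns of protein-coding genes. In Bard1, which encodes the partner of BRCA1, the pileups were 48 and 46 (0.715, 0.467 to 1.09). In Phf21a, a subunit gene of a histone demethylase complex, they were 40 and 37 (0.690, 0.429 to 1.11). In Cadps, a secretory granule protein gene, they were 36 and 29 (0.601, 0.355 to 1.01), and in Nalcn, a sodium leak channel gene, 33 and 26 (0.588, 0.338 to 1.01). In Ptprm, a receptor tyrosine phosphatase gene, they were 19 and 10 (0.393, 0.163 to 0.887). The direction was the same in these 5, although the depth-scaled interval of 4 of them reached above 1.

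The pileup of this group was larger where more hexamers stood in the window. The 19 members with 8 to 11 hexamers had a median of 29 MIZ-1WT fragments (13 to 54) and the 11 members with 12 or more had 63 (37 to 84). In MIZ-1DPOZ the medians were 22 and 50. The 2 members with the opposite direction held only 5 and 6 hexamers, scattered in windows with over 60% GC and more than 1 copy in the genome. They lay in introns of Lemd3, an inner nuclear membrane protein gene, and Farp1, with 10 and 39 fragments and 6 and 20 fragments. The group lay on 16 chromosomes, with 16 members in introns and 15 between genes, and 30 of its summits were single-copy by the 50-base measure. Its median local background was 1.10 in MIZ-1WT, above the most frequent value of 0.860. In MIZ-1DPOZ the median was 1.35, the most frequent value. The background reached 1.82 in MIZ-1WT, near 1700123O21Rik, and 2.49 in MIZ-1DPOZ, near Gm4825. The 141 members of 40 to 50% GC without the repeat had a median log2 ratio of -0.13 (-0.16 to -0.08).

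**Figure D3:**
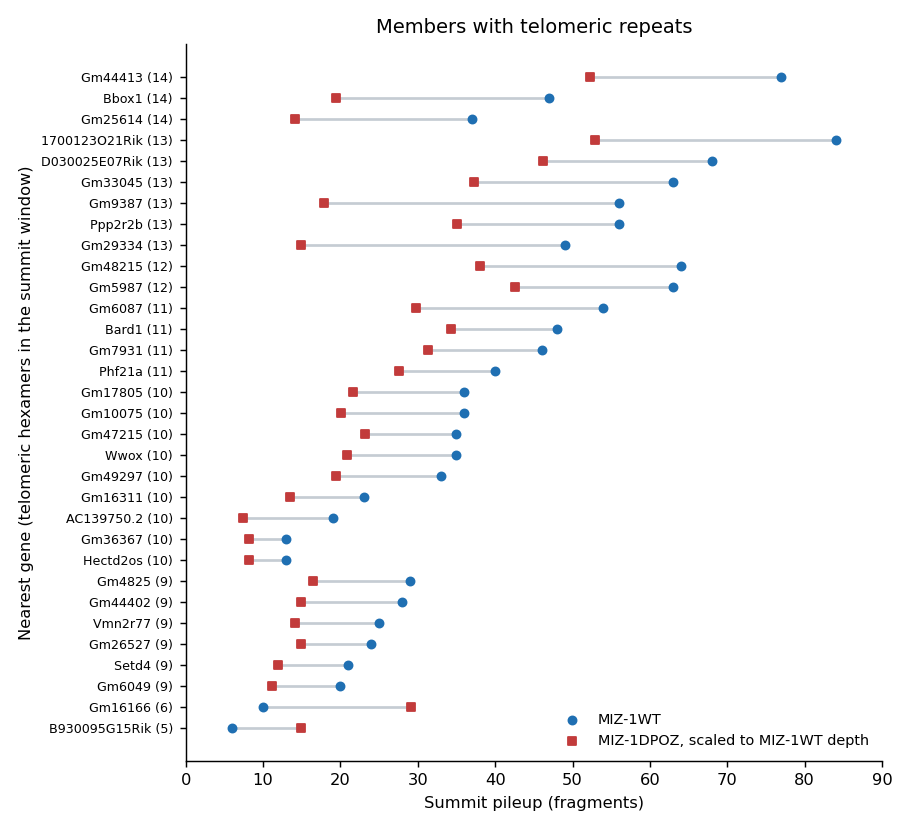
Summit pileup in fragments of the 32 members with at least 4 telomeric hexamers in the window, for MIZ-1WT (circles) and for MIZ-1DPOZ divided by the depth ratio of 1.34 (squares). Rows are named by the nearest gene and ordered by the number of hexamers. MIZ-1WT lies to the right in 30 rows, with values up to 84, and to the left in the bottom 2 rows.

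CpG content was compared with other peak classes and with the flanks. A window was called CpG-island-like with at least 50% GC and an observed over expected CpG of at least 0.6. This applied to 681 members (33.2%, 31.2 to 35.3), to 36.0% of all MIZ-1WT peaks and to 52.4% of all shared MIZ-1WT peaks. It applied to 34.1% of shared repeat peaks away from promoters and to 18.7% (17.2 to 20.3) of the MIZ-1WT-only class. The share was 89.9% of shared protein-coding promoters and 2.29% of the flanks, which did not have to meet the GC limit set for members. No CpG at all was present in 192 members (9.36%). Of the 681 CpG-island-like members, 214 were in the promoter window of a comprehensive GENCODE or a RefSeq start, and 467 were not. Their median pileups were 10 in MIZ-1WT and 14 in MIZ-1DPOZ, and the log2 ratio was 0.16 (0.11 to 0.21), or -0.06 with the background scaling. Of the 681, 532 were single-copy, with a median log2 ratio of 0.04 (-0.01 to 0.11). An example outside basic promoters was in an untranslated exon of Map1b, a microtubule-associated protein gene, on chr13:99421678-99421865. Its window held 23 CpG, and its pileups were 14 in each library, a ratio of 0.746 (0.330 to 1.69). Another lay near Hmgb1-rs17 on chr8:33517106-33517498, with 24 CpG and pileups of 10 and 11 (0.820, 0.316 to 2.15). Both had the low pileups of most members.

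**Figure D4:**
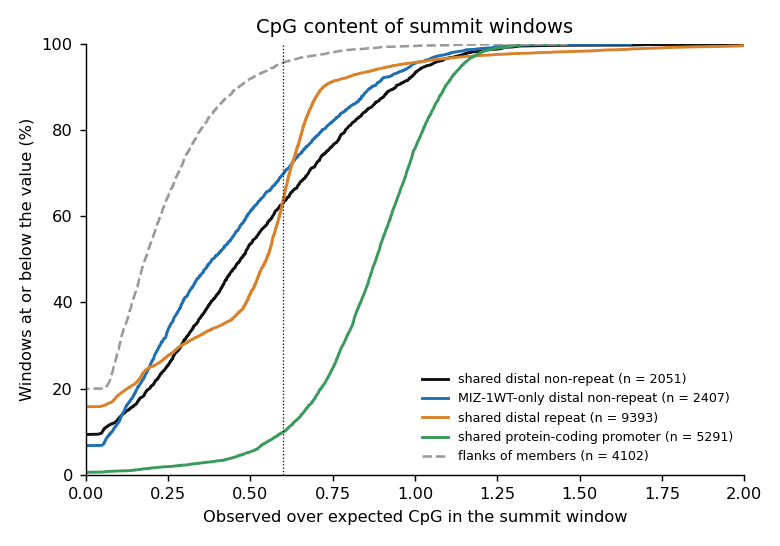
Share of summit windows (y axis, %) at or below a given observed over expected CpG (x axis), for the members, the MIZ-1WT-only class, shared repeat peaks away from promoters, shared protein-coding promoter peaks and the flanks of members. The dotted line marks 0.6. The members, with a median of 0.471, lie between the flanks (0.181) and the promoters (0.882).

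Tracts of at least 20 bases of CA or CG units, or of TG or CG units, were found in 260 members (12.7%, 11.3 to 14.2). Tracts of only CA or only TG units were counted too. Such tracts were in 26.3% (24.5 to 28.1) of the MIZ-1WT-only class and 8.52% of all MIZ-1WT peaks. They were found in 1.08% of shared protein-coding promoters and 2.22% of the flanks, which did not have to meet the GC limit. Such tracts can adopt the left-handed Z form of DNA. Pileups were low in this group, from 6 to 22 fragments in MIZ-1WT and from 8 to 49 in MIZ-1DPOZ. The median log2 ratio was -0.13 (-0.16 to -0.04), and MIZ-1DPOZ was the lower library at 159 of 260, or at 205 with the background scaling. Of the 260, 120 were CpG-island-like, and the longest tract of a window had a median length of 40 bases and a maximum of 88. The printed windows near Gm47975 and in Slc24a2, a sodium, calcium and potassium exchanger gene, had 18 and 14 fragments and 17 and 10 fragments. The ratio was 0.580 (0.267 to 1.23) at the former and 0.439 (0.180 to 1.01) at the latter, and both intervals included 1. Another tract, near Gm5987 on chr5:106181968-106182210, had 18 and 10 fragments and a ratio of 0.414 (0.171 to 0.947), an interval below 1. With the background scaling the ratio in Slc24a2 fell to 0.375 (0.154 to 0.868).

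Short motifs were searched for on both strands within 100 bp of the summits. The flanks, free of the GC limit set for members, had a median GC of 46.3%, where members had 63.7%. GGGCGG, the SP and KLF motif of GC-rich promoters, was in 568 members (27.7%, 25.8 to 29.7), 67.2% of shared protein-coding promoters, 26.8% of all MIZ-1WT peaks and 4.10% of the flanks. It was in 15.7% of the MIZ-1WT-only class, 45.8% of CpG-island-like members and 18.7% of the other members. CACGTG, the E-box bound by MYC with MAX, was in 122 members (5.95%, 5.00 to 7.06) and 7.73% (6.73 to 8.86) of the MIZ-1WT-only class. It was in 3.25% of all MIZ-1WT peaks and 2.73% of the flanks (2.27 to 3.28). GCGCATGCG, for NRF1, was in 19 members (0.926%), 1.54% of the MIZ-1WT-only class, 0.593% of all peaks and 0.0975% of the flanks. TGACTCA, for AP-1, was in 1.71% of members and 3.05% of the flanks. The B lineage motif GAGGAAGT, of the PU.1 type, was in 0.780% of members, 0.702% of all peaks and 1.17% of the flanks. The remaining letters were rare in members. CCGGAAGT (ETS) and the CTCF consensus were each in 7 members, TGACGTCA (CRE) in 6 and GGGANTTCC (NF-kB) in 17. The corresponding shares of all MIZ-1WT peaks were 0.415%, 0.266%, 0.260% and 0.368%. AAGATGGCG, for YY1, was in 1 member and in 26.8% of shared repeat peaks away from promoters. ATCGGTAAT, 9 bases of the published MIZ-1 consensus, was in no member and in none of the 34209 windows, which says only that these letters were not there. The 122 members with CACGTG had a median log2 ratio of 0.03 and median pileups of 10 and 13, while the members without it had 0.21, 9 and 14. The median was 0.16 at the 568 members with GGGCGG and 0.21 at the others. The 19 members with the NRF1 motif had -0.13 and median pileups of 9 and 12, which included the very high pair near Hic2 and in Fgfr2. With the background scaling all of these medians lay below 0.

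Some members were copies of each other. By alignment of the windows over at least 60 bases, 357 members (17.4%) fell into 84 families, 25 of them with 5 or more members. The median log2 ratio was 0.77 in families and 0.11 in the 1694 members outside them, and 126 of the 233 ratios of at least 2 were in families. The family of the printed Filip1l window had 12 members on 10 chromosomes, all CpG-island-like, with MIZ-1WT pileups from 9 to 283 and MIZ-1DPOZ pileups from 27 to 339. The most numerous family had 20 members on 13 chromosomes, with medians of 12 and 29 fragments and a log2 ratio of 0.60. A family of 15, of which 10 were on chromosome X, had medians of 11 and 37 and a log2 ratio of 1.31. In contrast, a family of 8 single-copy members on 6 chromosomes had medians of 8 and 12 and a log2 ratio of 0.11, which turns negative with the background scaling. Copy number and ratio did not always go together, since a further family of 15 on 10 chromosomes had a median of 1 copy and a log2 ratio of 0.81. The densest stretches were on chromosome 6. Around Rny3, a gene of the Y RNAs, 18 members lay at chr6:47738420-47778219, with pileups of 37 to 97 in MIZ-1WT and 96 to 212 in MIZ-1DPOZ. Around Gm25283, 12 members lay at chr6:47651700-47686641, with 41 to 72 and 141 to 189. On chromosome 8, 11 members around Gm20586 had 17 to 48 and 39 to 141. After scaling to depth, MIZ-1DPOZ was the higher library at every member of these 3 stretches, but the smallest log2 ratio, 0.11, falls below 0 with the background scaling. None of these summits was single-copy. Background there was high as well, with MIZ-1WT medians of 18.1, 19.4 and 6.67.

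Among members with a mean pileup of at least 20, 4 of the 5 largest ratios are given, all at multi-copy summits. Before Cerk, the ceramide kinase gene, on chr15:86195127-86195304, the pileup was 12 in MIZ-1WT and 114 in MIZ-1DPOZ, a ratio of 7.09 (3.90 to 14.1). The MIZ-1DPOZ summit lay 329 bp from that of MIZ-1WT, in a peak of 591 bp against 178 bp, so these pileups are not of 1 position. Near the vomeronasal receptor pseudogene Vmn1r-ps133 it was 5 and 45 (6.71, 2.67 to 21.7). In an intron of Pcca, which encodes a subunit of propionyl-CoA carboxylase, it was 6 and 47 (5.84, 2.49 to 16.7). In an intron of Gm26754 it was 6 and 41 (5.10, 2.15 to 14.7). In the last 3 pairs the summits lay 114 to 131 bp apart. The 4 intervals lay above 1 and were wide because of the low MIZ-1WT pileups.

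The members were then assigned to lists of genes of the B cell program. Of all annotated protein-coding genes, 3.79% were the nearest gene of at least 1 member. This was so for 1 of 38 genes of B cell receptor signalling (Fyn, a Src family kinase), 2 of 36 B cell transcription factors (Klf2 and Id3) and 2 of 30 regulators of the actin cytoskeleton (Dock8 and Tnk2). It was so for none of 17 genes of survival and cell cycle and none of 10 of autophagy and vesicle traffic. These shares, from 0% to 6.67%, lay on both sides of that background and each rest on at most 2 genes. Of all protein-coding genes, 3.92% had a transcript spanning a member summit. In the lists these were Fyn and Vav2, a guanine nucleotide exchange factor, then Bach2, Id3, Pax5 and Spi1, then Dock8, Cdk6 and Atg10. The shares were 5.26%, 11.1%, 3.33%, 5.88% and 10% of the lists in the same order, on 1 to 4 genes each. Pax5 maintains B lineage identity, Bach2 restrains plasma cell differentiation and Spi1 encodes PU.1.

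In MIZ-1WT, the pileups at these genes ran from 8 to 16 fragments. In an intron of Pax5, on chr4:44558140-44558396, the pileup was 11 in MIZ-1WT and 12 in MIZ-1DPOZ, a ratio of 0.814 (0.329 to 2.04). In an intron of Bach2, on chr4:32504323-32504558, it was 14 and 12 (0.639, 0.270 to 1.49). In an untranslated exon of Spi1, with Mybpc3 nearest, it was 16 and 10 (0.466, 0.189 to 1.09). At Id3, an inhibitor of E proteins, the summit lay 1285 bp after the start, with 9 and 18 fragments (1.49, 0.636 to 3.77). The member assigned to Klf2, a factor of lymphocyte quiescence, lay in an intron of Eps15l1, with 11 and 17 (1.15, 0.509 to 2.72). Fyn had 9 and 10 (0.829, 0.303 to 2.31) and Vav2 8 and 13. Dock8, an activator of Cdc42, had 8 and 9 (0.839, 0.287 to 2.50) and Tnk2, a Cdc42 effector kinase, 11 and 10 (0.678, 0.258 to 1.76). Cdk6, a cyclin D kinase gene, had 9 and 11. Atg10, an enzyme of autophagosome conjugation, had 9 and 31 (2.57, 1.19 to 6.14), but the paired summits lay 708 bp apart, in a MIZ-1DPOZ peak of 1617 bp and a MIZ-1WT peak of 231 bp, and the MIZ-1WT summit had 4 copies. Apart from Atg10, each of these intervals included 1. With the background scaling that of Spi1 lay below 1 (0.162 to 0.935).

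Members just inside the limits are given beside peaks just outside them. At 49.8% masked bases, a member near Gm16075 had 8 and 11 fragments, and at 50.2% a peak near Gm28694 had 11 and 13. At 40.3% GC, a member in Vmn2r77 with 9 hexamers had 25 and 19, and at 39.8% a peak near C130079G13Rik with 10 hexamers had 25 and 18, so the GC limit ran through the telomeric group. After start sites, a member lay at 1004 bp from H2-D1, a major histocompatibility gene, with 8 and 10, and a peak at 997 bp from Gm19459 with 16 and 39. Before them, a member lay 2000 bp from Gm27901 with 11 and 17 and a peak 1999 bp from Gm37224 with 6 and 15. The smallest overlap of a member was 3 bp, near Gm47089, with 10 fragments in each library.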

How the data were processed

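The authors performed MIZ-1 ChIP-seq on B220+ splenocytes with 1 ChIP and 1 input library per genotype. The study's methods name Trimmomatic, bwa and MACS2, while the submitters' processing notes name Bowtie2 2.2.6, MACS2 2.1.0 and mm10. Which aligner made the deposited lists, what q cutoff applied and how duplicates and multi-mapping reads were treated are not given in the sources used here, and the last could change pileups at repeated sequence. The deposited peak lists, called per genotype, hold a fold enrichment (a ratio), −log10 p and −log10 q at each summit, and the summit offset (a position in bp). Input libraries could enter only through the authors' background, and whether they did was not established here.

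Peaks were read against GRCm38.p6 (mm10 coordinates, RefSeq sequence, soft-masking) and GENCODE basic, with 55450 genes and 77200 start sites. Whole-number pileups were solved from fold and p under MACS2's formulas, with a largest error of 0.00023 in −log10 p, after testing on simulated data. Depth came from the most frequent background over the smallest peak width (0.860 over 148 and 1.35 over 173). Each member was paired with the MIZ-1DPOZ peak of largest overlap. Windows were aligned with blastn 2.17.0 (e-value limit 1e-10). Shares carry 95% Wilson intervals, medians order-statistic intervals and pileup ratios exact binomial intervals, which cover counting error only. Calculations used numpy 2.4.6, scipy 1.17.1, pandas 2.3.3 and numba 0.67.0 under Python 3.11.15.

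Members, gene lists, motifs and naming rules were chosen with earlier results of these data known. Members named are the 10 with the largest smaller paired −log10 q, the 5 largest and 5 smallest ratios at a mean pileup of at least 20, the first 3 per gene list, and the neighbours of each limit. Host genes of the lists, the sequence groups, families and stretches were added after the sequences were seen. Of the named members, 1 of the 5 largest ratios and the sequences of the telomeric windows are not reported here.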

Additional observations from a re-analysis of the deposited data

How the results depend on the processing

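With 1 library per genotype, no replicate could be left out and every interval covers counting error only. At pileups near 9 fragments, single sites cannot show moderate differences between the libraries. A total of 6 quantities (the number of members, their median MIZ-1WT fold, the CpG-island-like share, the median log2 ratio, the intron share and the share of paired summits within 100 bp) were recomputed under 12 alternatives. Of 57 values, 37 were classed as near the reported one and 19 as moved, and 1 changed sign. For the number of members the first class was wide. The cause was not tested, except that stricter limits leave fewer peaks.

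The number of members (2051) fell to 630 where both peaks reached a −log10 q of 5, 830 at a fold of at least 5, 1252 with the MIZ-1DPOZ list shortened to the number of MIZ-1WT peaks and 777 with no masked base. Smaller falls, classed as near, were to 1401 with each peak covering 50% of the other and to 1529 with single-copy summits. The number was 1563 with paired summits within 100 bp and 1650 beyond 5000 bp from any start. Under the q limit of 5, the median fold (5.29) was 6.45, the CpG-island-like share (33.2%) 39.2%, the log2 ratio (0.21) 0.13 and the share within 100 bp (76.2%) 81.4%. At a fold of at least 5 these were 5.91, 37.0%, 0.12 and 80.6%. With each peak covering 50% of the other, the log2 ratio was 0.11 and the share within 100 bp 89.2%. The log2 ratio was 0.47 with the shortened list, 0.062 with single-copy summits and -0.020, of the opposite sign, with the background scaling. The CpG-island-like share was 31.0% beyond 5000 bp from any start, 39.9% with no masked base and 25.3% with limits of 55% GC and 0.65. The intron share stayed near its value under each alternative tried. Leaving out the telomeric members, or members of high background, was added after seeing the data and moved none of the 6.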

Other observations

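The telomeric members are part of a wider set of sites that masking and the GC limit kept out. The reference chromosomes hold 362 runs of at least 4 exact tandem hexamers on either strand, 30 of which lie under a member. A MIZ-1WT peak overlapped 256 of the runs (70.7%, Wilson interval 65.8 to 75.2) and a MIZ-1DPOZ peak 219 (60.5%, 55.4 to 65.4), with 218 under both. Among 184 runs of 4 to 7 hexamers the shares were 45.1% and 35.9%, among 114 runs of 8 to 11 they were 95.6% and 78.1%, and all 64 runs of 12 or more had a peak in both lists. Longer runs were therefore nearly always under a peak in MIZ-1WT, and in MIZ-1DPOZ too at 12 or more. Of the 182 MIZ-1WT peaks with at least 4 hexamers in the window, 131 had more than 50% masked bases, 13 had less than 40% GC and 11 were at promoters. Whether reads from chromosome ends contribute to these peaks was not tested.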
